A study of Mus musculus with 48 samples.

Results

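The lacrimal gland (LG) and the spleen of the same NOD-FMT mouse were set side by side here, in all 10 mice of that group. These are 20 of the 48 heavy-chain B cell receptor (BCR) libraries of the series, 1 LG and 1 spleen library per mouse, chosen by group label, tissue label and replicate number. NOD-FMT mice are C57BL/6 (B6) mice that had their feces mixed between cages, drank ampicillin, vancomycin and metronidazole for 7 days and were gavaged at 5 weeks of age, daily for 3 weeks, with a fecal supernatant. Its 30 donors were NOD.B10.H2b mice with autoimmune dry eye disease, aged over 20 weeks. PBS-T mice (n = 9) received PBS by gavage on the same schedule, and NC mice (n = 5, titled NC1) were untreated B6 mice. The fecal inoculum came from a pool of donors, so the 10 recipients are replicates of 1 transfer.

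A BCR heavy chain is assembled from 1 IGHV, 1 IGHD and 1 IGHJ gene, and the junction forms the third complementarity determining region (HCDR3), the most variable part of the antigen binding site. Naive B cells carry IgM and IgD. Activated B cells can switch to IgG, IgA or IgE and can collect point mutations in the IGHV segment. The LG is an exocrine gland whose plasma cells secrete dimeric IgA into tears, whereas the spleen is a secondary lymphoid organ that is rich in naive B cells.

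A count is 1 consensus sequence built from reads that share a unique molecular identifier, so it stands for 1 RNA molecule that was copied. All sequences with 1 combination of IGHV gene, IGHJ gene and HCDR3 amino acids made up 1 clonotype. After removal of nucleotide sequences held by 3 or more mice of a tissue, the 10 LG libraries held 53623 to 264365 counts and the 10 spleen libraries 151402 to 2032338. The removal took 0.143 to 23.4% of LG counts and 5.99 to 11.96% of spleen counts. Among LG it was largest in mice 7, 5 and 10, at 23.4, 16.3 and 8.34%. The authors describe a removal at the same number of mice but report smaller losses, far smaller for the LG of mice 7 and 5. The removal here thus took more than theirs, and the reason was not tested. Clonotype sizes and evenness below were taken after it. Of the LG libraries, 6 had been merged by the authors from 2 sub-libraries, and within these between 94.6 and 99.7% of the counts of either sub-library lay on clonotypes of the other. The sources used here do not say whether sub-libraries are 2 runs, 2 libraries of 1 gland or both glands of a mouse. Heavy-chain libraries carry no transcripts of gland or spleen cells other than B cells, so the tissue labels could not be checked against tissue markers.

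The LG libraries were almost entirely IgA, and the spleen libraries were mostly IgM. The IgA share of LG counts ran from 94.6 to 98.7% with a median of 96.9%, and that of spleen counts from 7.78 to 16.4% with a median of 9.88%. No LG overlapped any spleen. The mean shares were 96.7% ± 1.31 and 10.95% ± 2.95 (SD, n = 10), and the gland exceeded the spleen in 10 of 10 mice, by 85.8 percentage points ± 3.16. IgM ran the other way, with 0.265 to 3.53% of LG counts and 57.8 to 78.1% of spleen counts. IgD, which marks naive cells, made up 0.00529% ± 0.00549 of LG counts and 6.47% ± 1.37 of spleen counts. In bulk libraries, fewer cells of a type and less RNA per cell cannot be told apart.

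**Figure D1:**
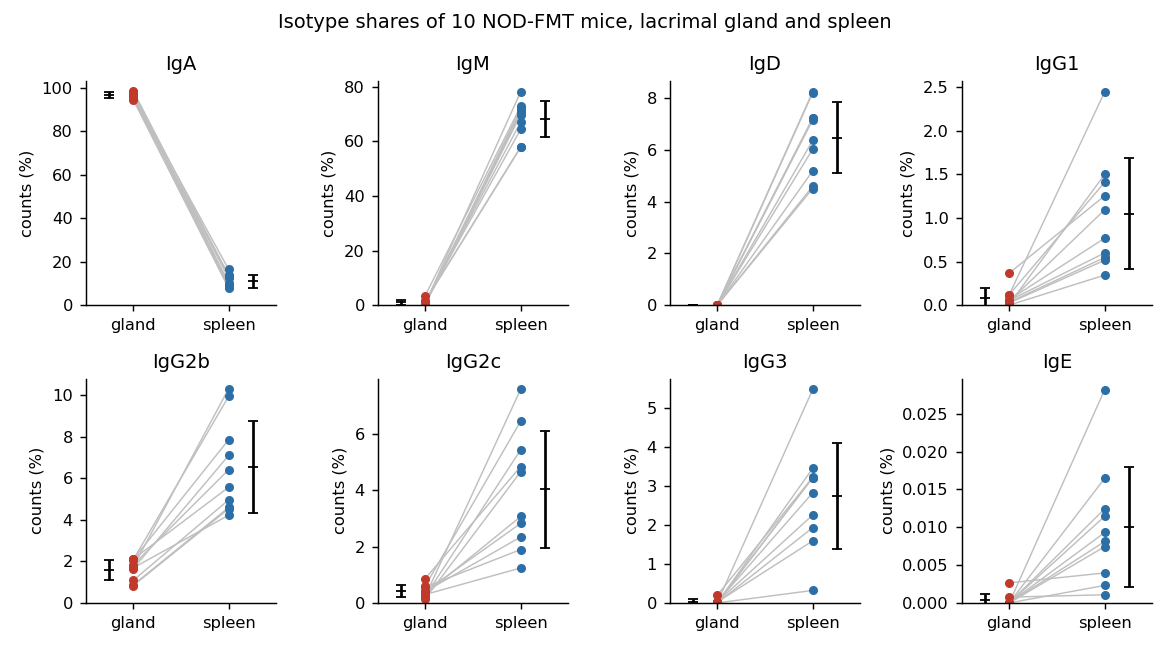
Share of counts of each isotype in percent (y axis, from 0, with its own scale per panel) in the gland (red) and the spleen (blue) of 10 NOD-FMT mice. Grey lines join the 2 tissues of a mouse and black bars give the mean ± SD. IgA went from a mean of 96.7% in the gland to 10.95% in the spleen, and each other isotype had a higher mean in the spleen.

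Each IgG subclass also held a smaller share of counts in the LG than in the spleen of the same mouse. IgG2b, the most frequent of the 4 in both tissues, stood at 1.59% ± 0.494 in the LG and 6.55% ± 2.22 in the spleen. IgG2c stood at 0.410% ± 0.215 and 4.04% ± 2.09, IgG3 at 0.0292% ± 0.0598 and 2.75% ± 1.37, and IgG1 at 0.0848% ± 0.108 and 1.05% ± 0.637. IgE, the rarest isotype, made up 0.000341% ± 0.000845 of LG counts and 0.0101% ± 0.00793 of spleen counts. Its median in the LG was 0, where a count of 0 allows up to 0.00113 to 0.00559% of a library. Spleen IgE ran from 0.00108 to 0.0282%, so this difference lies near the limit of detection. Of the 8 isotypes, IgG1 and IgE had ranges that overlapped between the tissues. All 8 differences had an adjusted p of 0.00195 by a two-sided exact sign-flip permutation test over 10 mice, the smallest value that this test can give. When each clonotype was counted once per isotype, so that its number of counts no longer mattered, the direction turned for 3 subclasses. IgG1 was then higher in the LG by 0.391 percentage points (adjusted p = 0.0391), IgG2b by 3.95 (adjusted p = 0.00391) and IgG2c by 1.27 (adjusted p = 0.00625). IgG3, at -0.231 (adjusted p = 0.266), and IgE (adjusted p = 0.949) then did not pass. Counting each unique sequence once ended the calls on IgG2b (-0.587, adjusted p = 0.289) and IgE (adjusted p = 0.179).

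LG IgA carried few IGHV mutations, and spleen IgA carried many. A mutation here is a mismatch between a sequence and its assigned germline IGHV allele. In the LG, 61.7 to 87.0% of IgA counts had none, with a median of 73.1%. In the spleen this share was 25.1 to 51.0%, with a median of 29.3%. The ranges were separate, and the LG was higher in 10 of 10 mice, at 74.5% ± 7.97 against 31.5% ± 7.28 (SD, n = 10), with an adjusted p of 0.00391 by the exact sign-flip test. With each unique sequence counted once instead of every count, this excess of 43.0 percentage points was 6.35 (adjusted p = 0.00521). The highest spleen value, 51.0%, belonged to mouse 8, the only spleen above 34.9%.

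The number of mutations per IgA count followed, at 0.697 ± 0.427 in the LG and 2.85 ± 0.488 in the spleen, lower in the LG of 10 of 10 mice (adjusted p = 0.00391, exact sign-flip test). The LG of mouse 6 was highest, at 1.70, followed by one at 0.943. IgG showed a like difference, with 72.9% ± 7.83 of LG counts and 39.3% ± 11.2 of spleen counts free of mutations, higher in 10 of 10 LG (adjusted p = 0.00391), although the ranges overlapped. For IgM, the share without mutations was 70.4% ± 24.2 in the LG and 74.8% ± 5.96 in the spleen, a difference of -4.42 percentage points ± 19.7 that did not pass (adjusted p = 0.605). The LG held only 245 to 6076 IgM counts per mouse, and its values spread from 16.9 to 92.8%. With each unique sequence counted once, the number of IgM mutations passed as higher in the LG.

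**Figure D2:**
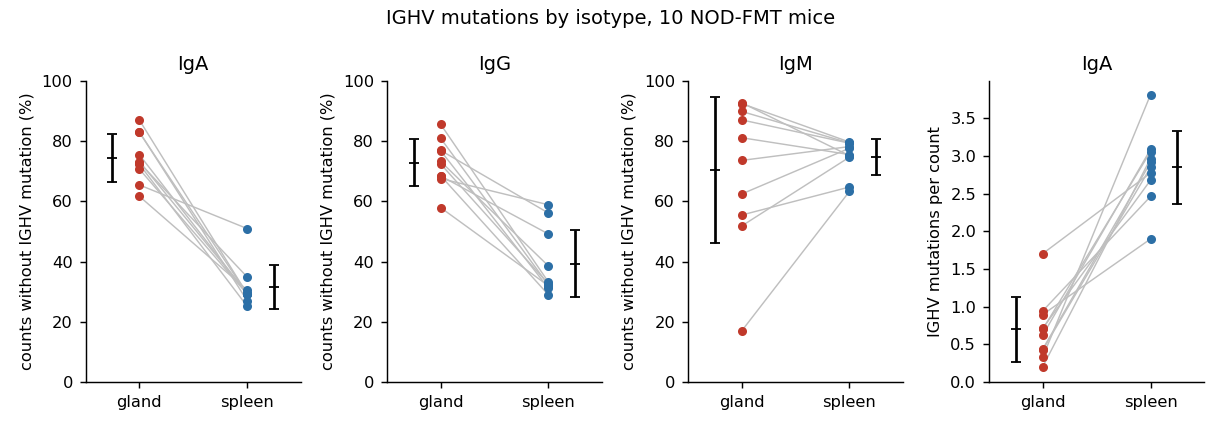
Share of counts without an IGHV mutation in percent for IgA, IgG and IgM, and IGHV mutations per IgA count (y axes), in the gland (red) and spleen (blue) of 10 NOD-FMT mice. Grey lines join the tissues of a mouse and black bars give the mean ± SD. For IgA the gland values, 61.7 to 87.0%, all lay above the spleen values, while for IgM the gland values lay on both sides of the spleen's.

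Over all isotypes together the tissues were closer. The LG had 0.699 ± 0.412 mutations per count and the spleen 1.203 ± 0.255, lower in the LG of 8 of 10 mice with an adjusted p of 0.0406. This call was lost when any of 8 mice was left out, and it turned when each unique sequence was counted once, to 0.613 more mutations in the LG (adjusted p = 0.0290). Within IgA, counting unique sequences once kept the number of mutations lower in the LG, by 2.02. With every clonotype above 1% of the LG left out, 57.01 to 82.7% of the remaining LG IgA counts, median 71.2%, were unmutated.

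The LG repertoires were small and dominated by few clonotypes. At an equal depth of 53623 counts, a LG held 523 to 1135 clonotypes and a spleen 21666 to 28874, so no LG came near any spleen. On the log2 scale the difference was -5.05 ± 0.359, with a lower number in the LG of 10 of 10 mice (adjusted p = 0.0026, exact sign-flip test). The 10 largest clonotypes took 42.4% ± 11.2 of LG counts and 8.69% ± 3.09 of spleen counts. Evenness, which is 1 when all clonotypes are equally large, was 0.635 ± 0.0548 in the LG and 0.813 ± 0.0393 in the spleen. Both measures separated the tissues without overlap and had the same adjusted p of 0.0026.

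The largest clonotype alone held 3.50 to 26.3% of LG counts, median 9.46%, against 0.698 to 8.84% in the spleen, median 1.47%. It was larger in the LG of 9 of 10 mice (adjusted p = 0.0039), the exception being mouse 8 with 7.90% in the LG and 8.84% in the spleen. Clonotypes above 1% numbered 15 to 28 per LG and together made up 42.5 to 73.0% of its counts. Of these 207 clonotypes over the 10 mice, 201 also occurred in that mouse's spleen, and in 165 most LG counts carried no IGHV mutation. Of all LG clonotypes, 33.6% ± 8.72 occurred in the own spleen, but large clonotypes are easier to find in both tissues. Of all LG counts, 74.3% ± 7.80 were unmutated. The share of mostly unmutated clonotypes among all LG clonotypes was not computed.

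The largest LG clonotype differed from mouse to mouse in gene and HCDR3. The HCDR3 sequences of all 10 are given so that they can be compared. They are the most frequent nucleotide form in the LG, 5′ to 3′, as deposited, with capitals for the bases between the aligned IGHV and IGHJ segments, that is IGHD and added bases.
IGHV1-55/IGHJ3, mouse 1: gcaagaGACAGGgcttac
IGHV2-2/IGHJ1, mouse 2: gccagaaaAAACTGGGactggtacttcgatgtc
IGHV1-53/IGHJ4, mouse 3: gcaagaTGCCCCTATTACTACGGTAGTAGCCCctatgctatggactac
IGHV5-16/IGHJ4, mouse 4: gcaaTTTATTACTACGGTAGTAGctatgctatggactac
IGHV1-72/IGHJ3, mouse 5: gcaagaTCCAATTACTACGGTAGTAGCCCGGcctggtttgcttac
IGHV7-3/IGHJ2, mouse 6: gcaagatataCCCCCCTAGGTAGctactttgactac
IGHV2-3/IGHJ3, mouse 7: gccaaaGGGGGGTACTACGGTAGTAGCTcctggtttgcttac
IGHV1-9/IGHJ2, mouse 8: gcaagaGGGGGCGactactttgactac
IGHV1-39/IGHJ4, mouse 9: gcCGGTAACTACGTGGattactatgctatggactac
IGHV10-1/IGHJ1, mouse 10: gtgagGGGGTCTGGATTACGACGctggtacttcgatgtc

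These clonotypes were far rarer in the spleen of the same mouse. They were chosen by size in the LG, so a smaller spleen share is in part set by that choice. The largest spleen clonotypes were not looked up in the LG in return. Each of the clonotypes was in the spleen with the same leading HCDR3 nucleotide sequence, in 10 of 10 mice. The IGHV1-55 clonotype of mouse 1 (HCDR3 ARDRAY) took 8.95% of LG counts (95% Wilson interval 8.84 to 9.06%) and 97 counts, or 0.0206%, of the spleen. The IGHV5-16 clonotype of mouse 4 took 22.4% of the LG and 63 counts, or 0.0195%, of the spleen. The IGHV7-3 clonotype of mouse 6 took 16.5% of the LG and 0.0882% of the spleen, where 45.9% of its counts were IgA and 53.2% IgM. Intervals cover counting error only, since amplified molecules are not independent cells.

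Whether the largest clonotype was mutated varied between mice. That of mouse 5, an IGHV1-72/IGHJ3 clonotype with 26.3% of LG counts, was unmutated in 97.0% of them, and that of mouse 4 in 98.1%. The IGHV1-9 clonotype of mouse 8 (HCDR3 ARGGDYFDY) had 3.08 mutations per LG count and 3.33 per spleen count, with no unmutated count in the LG. It also ranked 10 by size in the spleen of that mouse, with 0.398% of counts. The IGHV2-2 clonotype of mouse 2 had 2.35 mutations per LG count and 2.69 per spleen count. Over these 10 clonotypes at least 98.3% of LG counts were IgA, while the IgA share of their spleen counts ran from 24.5 to 100%.

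Most LG counts lay on clonotypes that the spleen of the same mouse also held. The share of LG counts on such clonotypes ran from 78.7 to 94.5%, with a median of 91.1%. On the spleens of the other 9 mice the mean share per LG was 4.19 to 17.3%, with a median of 7.43%. For each of the 10 LG, the own spleen held a larger share than any other spleen. The means were 89.4% ± 4.92 and 8.15% ± 3.52 (SD, n = 10), a difference of 81.2 percentage points ± 5.22 with p = 0.00195 (exact sign-flip test). The highest share on another mouse's spleen was 34.6%, for the LG of mouse 5 and the spleen of mouse 3. Most of it lay on 1 clonotype, the largest of that LG with 26.3% of its counts. That clonotype was in 2 NOD-FMT spleens, those of mice 5 and 3.

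**Figure D3:**
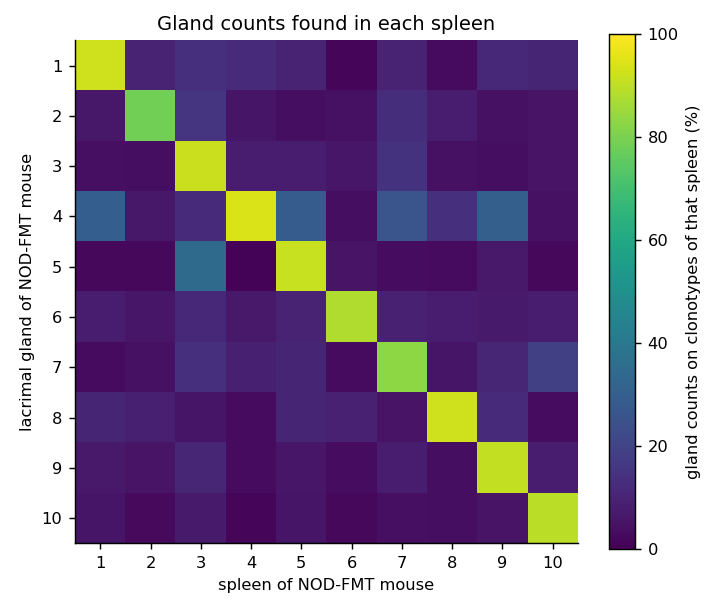
Share of gland counts, in percent (colour scale, 0 to 100), that lie on clonotypes also found in a given spleen, for each gland (rows) and each spleen (columns) of the 10 NOD-FMT mice. The diagonal, gland and spleen of 1 mouse, ran from 78.7 to 94.5%, and no value off it was above 34.6%.

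By number of clonotypes the overlap was smaller. Each mouse had 228 to 750 clonotypes in both tissues, median 368.5, which was 33.6% ± 8.72 of its LG clonotypes and 0.294% ± 0.156 of its spleen clonotypes. In the spleens of other mice 3.75% ± 0.770 of LG clonotypes were found (difference 29.8 percentage points ± 8.07, higher in 10 of 10, p = 0.00195). Clonotypes can coincide in amino acids by separate rearrangements, so identical nucleotide sequences were also counted. Sequences identical to one in the own spleen held 74.4% ± 7.90 of LG counts, and sequences identical to one in another spleen 0.231% ± 0.246. Removing sequences held by 3 or more mice lowers the second value by construction. Without that removal the shares were 80.6% ± 5.66 and 2.48% ± 3.97 (difference 78.2 percentage points, higher in 10 of 10, p = 0.00195, exact sign-flip test). With all spleens thinned to 151402 counts, the difference in counts was still 79.5 percentage points.

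Spleen clonotypes of IgA were found in the LG far more often than spleen clonotypes without IgA. Of spleen clonotypes whose counts were mostly IgA, 1.68 to 11.1% occurred in the LG of the same mouse, and of those with no IgA count 0.00874 to 0.151%. The means were 6.99% ± 2.55 and 0.0677% ± 0.0444, higher for IgA in 10 of 10 mice (p = 0.00195, exact sign-flip test). Clonotype size was not matched here, and larger clonotypes are easier to find in both tissues, so isotype and size are not separated. The shared clonotypes held 24.7 to 60.2% of all spleen IgA counts, median 44.0%, against 6.66 to 19.6% of spleen counts of any isotype. Within spleen IgA, 25.1 to 69.1% of the counts on shared clonotypes were unmutated, median 35.5%, and 22.4 to 31.0% of the counts on the others, median 25.4%.

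A clonotype found in both tissues often had a different isotype makeup in each. Averaged over clonotypes, IgA made up 84.4% ± 2.81 of a shared clonotype's LG counts and 59.3% ± 4.75 of its spleen counts, higher in the LG of 10 of 10 mice (adjusted p = 0.00195, exact sign-flip test). Over their pooled counts the IgA share was 94.7 to 99.0% in the LG, median 97.2%, and 30.3 to 60.1% in the spleen, median 46.2%. In the spleen, 72.8 to 86.0% of shared clonotypes had at least 1 IgA count and 32.7 to 64.1% at least 1 IgM count. Between 24.2 and 48.7% had both. The same clonotypes carried 1.47 ± 0.507 mutations in the LG and 1.94 ± 0.477 in the spleen, lower in the LG of 10 of 10 mice (adjusted p = 0.00195).

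Within the LG, shared clonotypes were larger than those found in the LG alone. The mean log10 count was 1.45 ± 0.182 for shared and 0.352 ± 0.100 for LG-only clonotypes (10 of 10 mice, adjusted p = 0.0039, exact sign-flip test). Of the LG-only clonotypes, 57.2 to 79.8% rested on a single count. The IgA share did not pass, at 84.4% ± 2.81 and 79.8% ± 12.6 (adjusted p = 0.275). Shared clonotypes had fewer mutations, 1.47 ± 0.507 against 2.02 ± 0.648 (9 of 10 mice, adjusted p = 0.0052), but among clonotypes of 5 or more counts the difference was 0.196 in the other direction (adjusted p = 0.266). Their HCDR3 was shorter by 0.460 amino acids ± 0.384 in 10 of 10 mice (adjusted p = 0.0039), which at 5 or more counts was 0.311 (adjusted p = 0.102).

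Few clonotypes were found in both tissues of more than 1 mouse. Over the 10 mice together, 3630 clonotypes were in both tissues of just 1 mouse, 78 in those of 2 mice and 25 in those of 3 mice. There were 3 in 4 mice, 3 in 5 mice, 2 in 6 mice and 1 in 9 mice. Of these 9 in 4 or more mice, 5 used IGHV6-3 or IGHV6-6. The IGHV6 family made up a mean of 4.28% of all LG clonotypes and 3.50% of all spleen clonotypes. Of the 5, 4 shared IGHJ3 and a 7-residue HCDR3 ending in FAY, residues that lie in the aligned IGHJ3 segment. IGHJ3 made up a mean of 25.4% of all LG clonotypes and 23.8% of all spleen clonotypes. The sequences of the 5 are shown as above, from the LG in which each was largest, to make that likeness visible.
IGHV6-3/IGHJ3, TGDGFAY, both tissues of 9 mice: acgggTGACGggtttgcttac
IGHV6-3/IGHJ3, TGQGFAY, both tissues of 5 mice: acaggCCAGGggtttgcttac
IGHV6-3/IGHJ3, TGDSFAY, both tissues of 5 mice: acaggTGATTCCtttgcttac
IGHV6-6/IGHJ3, TRLGFAY, both tissues of 4 mice: accagATTGGggtttgcttac
IGHV6-3/IGHJ1, TRYFDV, both tissues of 6 mice: acGAggtacttcgatgtc

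The TGDGFAY clonotype was in the LG of 9 NOD-FMT mice and in the spleen of 10. No PBS-T library and no NC LG held it, and 1 NC spleen did. Among the 9 LG its leading nucleotide sequence took 7 different forms. Its share was highest in mouse 6, with 1227 counts or 2.29% of the LG, followed by mouse 7 with 0.459% and mouse 5 with 0.422%, and in mouse 2 it rested on 2 counts. In the LG at least 98.7% of its counts were IgA in each of these mice. In the spleens of the same mice it had 7 to 323 counts, with 14.3 to 81.8% IgA. The removal of nucleotide sequences held by 3 or more mice lowers the number of mice in which such a clonotype can be found. It also takes out forms common to several mice, so the variety of leading forms is in part set by it.

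Most of the widely found clonotypes also occurred in PBS-T or NC mice. Of the IGHV6 clonotypes above, TRLGFAY was in 4 PBS-T and 2 NC spleens, TRYFDV in 3 and 2, TGQGFAY in 1 and 1, and TGDSFAY in 1 NC spleen. The IGHV1-76/IGHJ2 clonotypes ARRGDGYYFDY (both tissues of 5 mice) and ARRGTGYYFDY (4 mice) were also in the LG of 5 and 3 PBS-T mice. The IGHV7-1/IGHJ1 clonotype ARDYYGSSYWYFDV was in all 10 spleens and 6 LG of NOD-FMT mice, and in 9 PBS-T and 5 NC spleens. After removal of sequences held by 3 or more mice, it held at most 0.005% of LG counts, on 1 to 8 counts per mouse. Its leading HCDR3 nucleotide sequence was the same in these LG, so that removal can lower its share. ARDRAY appeared with IGHV1-55 and either IGHJ2 (both tissues of 4 mice) or IGHJ3 (3 mice). Neither version was in any PBS-T or NC library.

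HCDR3 regions of the LG carried more positive charge than those of the spleen. Net charge is the number of arginine and lysine residues minus that of aspartate and glutamate, averaged over clonotypes. It ran from -0.125 to 0.238 in the LG, median 0.114, and from -0.280 to -0.221 in the spleen, median -0.268, with no overlap. The difference was 0.326 ± 0.125 and was positive in 10 of 10 mice (adjusted p = 0.00586, exact sign-flip test). LG HCDR3 had 1.33 ± 0.0783 basic and 1.26 ± 0.0914 acidic residues, and spleen HCDR3 1.15 ± 0.00952 and 1.41 ± 0.0283. A net positive HCDR3 was found in 34.2% ± 4.86 of LG clonotypes and 23.9% ± 0.369 of spleen clonotypes.

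The charge difference held within isotypes, though it was smaller there. It was 0.264 within IgA (adjusted p = 0.00586) and 0.0818 within IgM (adjusted p = 0.0449). HCDR3 length did not pass, at 11.5 amino acids ± 0.399 in the LG and 11.5 ± 0.192 in the spleen (difference 0.0200 ± 0.482, adjusted p = 0.896). With clonotypes of 2 or more counts alone, however, the LG HCDR3 was longer by 0.552 amino acids (adjusted p = 0.00586), and within IgM the difference was -0.402 (adjusted p = 0.0449). The tyrosine share, 20.1% ± 0.557 and 20.2% ± 0.199, did not pass (adjusted p = 0.624). It was higher in the LG by 0.474 percentage points with 2 or more counts (adjusted p = 0.0137), by 0.722 with 5 or more (adjusted p = 0.00293) and by 1.14 within IgM (adjusted p = 0.0449).

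**Figure D4:**
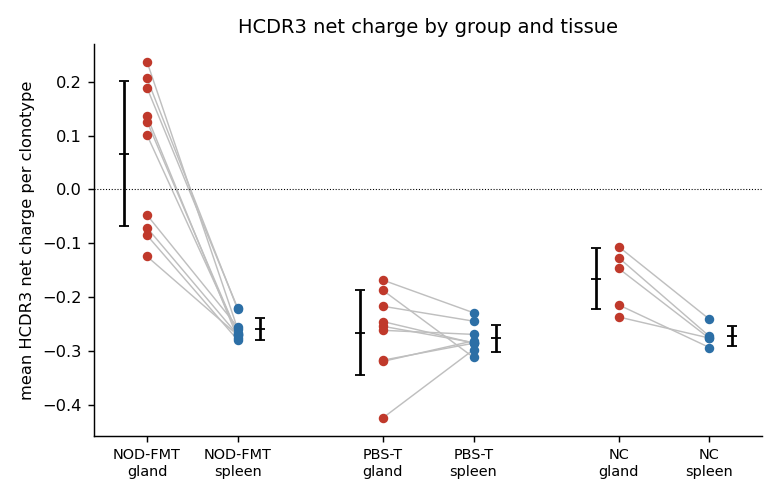
Mean HCDR3 net charge per clonotype (y axis, charges per HCDR3) in the gland (red) and spleen (blue) of 10 NOD-FMT, 9 PBS-T and 5 NC mice. Grey lines join the tissues of a mouse, black bars give the mean ± SD, and the dotted line marks 0. The NOD-FMT glands ran from -0.125 to 0.238, and the highest of all spleens was the NOD-FMT one at -0.221.

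The IGHV genes that rearranged clonotypes used also differed between the tissues. Of 143 IGHV genes seen, 93 had enough clonotypes to be tested with edgeR's quasi-likelihood test with the mouse as a block, on numbers of clonotypes. A gene could be let in by the 10 spleens alone, and one absent from any LG needed spleens to reach the 10 libraries required. Among falling genes these were IGHV9-2 and IGHV1-49, with 6 and 2 LG clonotypes, IGHV1-42, IGHV1-52, IGHV1-74, IGHV9-1, IGHV14-1 and IGHV14-4. Falls of such genes are in part set by that entry. Of the 93 tested genes, 9 (9.68%) took a larger share of clonotypes in the LG and 19 (20.4%) a smaller one at an adjusted p under 0.05. The median log2 ratio over all tested genes was -0.27. With DESeq2 the numbers were 12 and 13, and the median was -0.10. Weighted by counts instead of clonotypes, edgeR called 0 genes higher (0 at an unadjusted p under 0.05) and 44 lower, with a median of -2.45. Without a filter on low counts 35 were higher and 20 lower. Within IgA alone, of 59 tested genes, 3 were higher, 2 of them among the 9, and 6 lower, all among the 19. With clonotypes of 5 or more counts, 4 of the 9 and 4 of the 19 kept their calls, of 53 tested. Of the 19 lower genes, 11 were among the 46 tested IGHV1 genes. The IGHV genes lie in 1 cluster on chromosome 12 of GRCm38, on the minus strand.

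**Figure D5:**
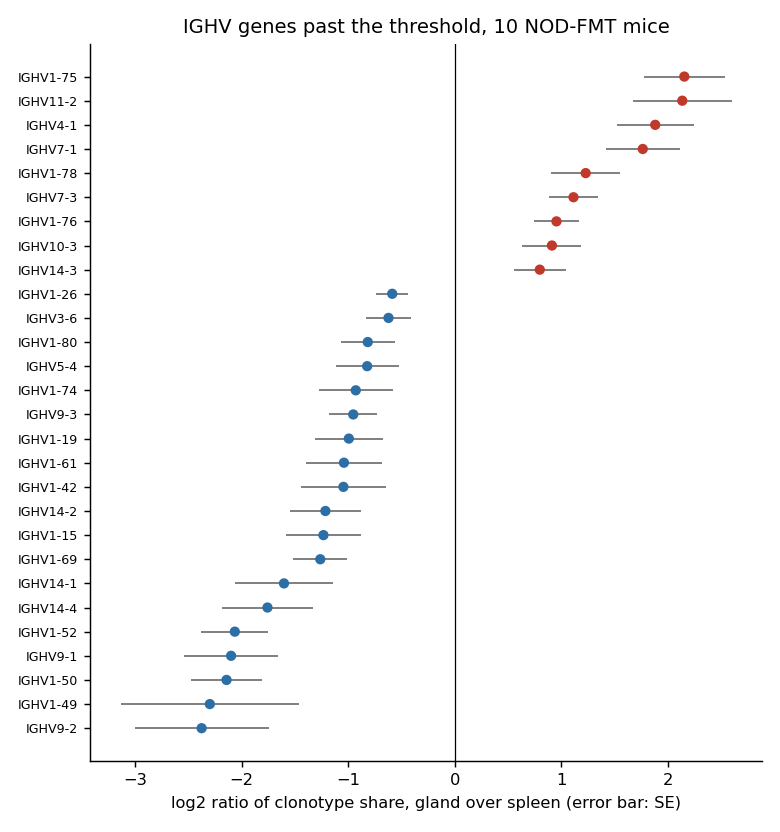
Log2 ratio of the share of clonotypes, gland over spleen (x axis), for the 28 IGHV genes past the threshold in 10 NOD-FMT mice. Error bars give ± SE, computed from edgeR's log2 ratio and F statistic. The 9 red genes were higher in the gland, up to 2.15 for IGHV1-75, and the 19 blue genes lower, down to -2.37 for IGHV9-2.

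IGHV1-75 (chr12:115833950-115834418) had the largest rise. It made up 0.299 to 0.731% of LG clonotypes and 0.0453 to 0.225% of spleen clonotypes, without overlap, for a log2 ratio of 2.15 ± 0.38 (SE, adjusted p = 2.46e-05, edgeR). Weighted by counts its ratio was -0.23 (adjusted p = 0.891), where the median gene was at -2.45, and within IgM it was -0.70 (adjusted p = 0.741). Of the nearby tested genes, IGHV1-76 and IGHV1-78 rose by 0.95 ± 0.21 and 1.23 ± 0.32. IGHV1-77, between them, did not pass (-0.27, adjusted p = 0.674), and IGHV1-74, on the other side, fell by 0.93 ± 0.35. IGHV4-1 (chr12:113948282-113948796) rose by 1.88 ± 0.36, from 0.255% ± 0.0785 of spleen clonotypes to 1.01% ± 0.453 of LG clonotypes, in 10 of 10 mice, but weighted by counts its ratio was -2.88 (adjusted p = 0.00613). IGHV10-3, of a family known for DNA-binding antibodies, rose by 0.91 ± 0.28 in 9 of 10 mice, with -0.69 within IgM (adjusted p = 0.390), and IGHV14-3 rose by 0.80 ± 0.24.

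IGHV7-1 and IGHV7-3 rose by 1.76 ± 0.35 and 1.11 ± 0.23, each in 10 of 10 mice. IGHV7-1 (chr12:113896408-113896946) encodes the phosphorylcholine antibodies of the T15 type. It made up 0.475 to 2.06% of LG clonotypes and 0.267 to 0.367% of spleen clonotypes. With clonotypes of 2 or more counts alone, IGHV7-3 (0.03) and IGHV4-1 (0.67) did not pass. IGHV7-1 did not pass at 5 counts (0.29, adjusted p = 0.498).

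Of the B-1 cell genes known for phosphatidylcholine antibodies, IGHV11-2 rose and IGHV12-3 did not pass. IGHV11-2 (chr12:114048241-114048812) made up 0 to 0.958% of LG clonotypes, median 0.220%, and 0.0440 to 0.0670% of spleen clonotypes. The LG was higher in 9 of 10 mice, with a log2 ratio of 2.14 ± 0.47 (adjusted p = 0.000329, edgeR), on 34 LG clonotypes in all. Weighted by counts instead of clonotypes, the ratio was -3.73 (adjusted p = 0.0264), where the median gene was at -2.45. IGHV12-3 had 6 clonotypes in the 10 LG and a log2 ratio of -0.25 ± 0.68 (adjusted p = 0.807). It passed as lower with weighting by counts (-7.01, on the scale with that median) and as higher within IgM (2.43, adjusted p = 0.0406). IGHV11-1 had no clonotype in any LG and too few for a test.

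Among genes past the threshold, the largest falls were in IGHV9 and IGHV1 genes. IGHV9-2 (chr12:114109001-114109430) made up 0 to 0.150% of LG clonotypes, 0 in 7 mice, and 0.0935 to 0.314% of spleen clonotypes, a log2 ratio of -2.37 ± 0.63 (adjusted p = 0.00265). IGHV9-1 and IGHV9-3 fell by 2.10 ± 0.44 and 0.95 ± 0.22 on the log2 scale, so that 3 of 4 tested IGHV9 genes fell, against 20.4% of all tested genes. Within IgM, IGHV9-1 was at 0.15 (adjusted p = 0.890). IGHV1-50 (chr12:115119748-115120219) made up 0.460% ± 0.344 of LG and 1.82% ± 0.0809 of spleen clonotypes, lower in 10 of 10 mice, for a ratio of -2.14 ± 0.33. IGHV1-52 fell by 2.06 ± 0.31 and IGHV1-69 by 1.26 ± 0.25. IGHV1-15 fell by 1.23 ± 0.35, and IGHV1-49, with 2 LG clonotypes in all, by 2.30 ± 0.83. The call on IGHV1-49 was lost without any 1 of 7 mice. IGHV1-49, IGHV1-52, IGHV9-1 and IGHV9-2 were each absent from at least 1 LG, so spleens were needed to let them into the test.

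The IGHV14 genes were divided. IGHV14-1 and IGHV14-4, each absent from at least 1 LG and so let in with the help of spleens, fell by 1.60 ± 0.46 and 1.76 ± 0.43. IGHV14-2 fell by 1.21 ± 0.33, whereas IGHV14-3 was among the genes that rose. Its direction turned within IgA (-0.40, adjusted p = 0.203). Weighted by counts it was at -0.37 (adjusted p = 0.645), above the median gene at -2.45. IGHV6-3 and IGHV6-6, the genes of the widely shared clonotypes above, did not pass, with ratios of 0.14 ± 0.23 (adjusted p = 0.707) and 0.27 ± 0.27 (adjusted p = 0.511). With clonotypes of 5 or more counts both passed as lower, at -0.44 and -0.56 (adjusted p = 0.0423), and within IgM IGHV6-6 passed as higher (1.27, adjusted p = 0.00128). Of the families nearest to the IGHD genes, none of 8 tested IGHV2 genes passed, and 1 of 9 IGHV5 genes, IGHV5-4, fell, against 9.68% higher and 20.4% lower of all tested genes. No IGHV8, IGHV13 or IGHV15 gene passed.

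At the level of the 15 families, 4 were higher in the LG, 1 was lower and 10 did not pass. Leaving out any 1 mouse left 2 or 3 higher families, since IGHV10, IGHV11 or both lost their calls. IGHV7 made up 4.17% ± 1.29 of LG and 1.69% ± 0.210 of spleen clonotypes, and IGHV4 1.08% ± 0.514 and 0.255% ± 0.0785, each higher in 10 of 10 mice without overlap (adjusted p = 0.00977, exact sign-flip test). Weighted by counts instead of clonotypes, the sign of the IGHV4 difference turned. IGHV10 (4.06% ± 1.57 and 2.34% ± 0.383) and IGHV11 (0.295% ± 0.286 and 0.0611% ± 0.00707) were higher in 9 of 10 (adjusted p = 0.0352). IGHV9 was lower in 10 of 10, at 2.41% ± 0.823 and 4.35% ± 0.875 (adjusted p = 0.00977). It did not pass within IgA (-0.502, adjusted p = 0.0684) or with 2 or more counts (-1.13, adjusted p = 0.0586), and within IgM it was at 1.38 in the other direction (adjusted p = 0.161). The largest family, IGHV1, did not pass, at 60.1% ± 7.89 and 62.0% ± 2.72 (adjusted p = 0.592).

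The calls on families differed when isotypes or clonotype sizes were taken separately. Compared within IgA, 1 family passed as higher, IGHV10 by 2.16 percentage points (adjusted p = 0.0439), and IGHV14 as lower, by 2.07 (adjusted p = 0.0439). Within IgM, the LG held 20.4 percentage points less IGHV1 (adjusted p = 0.00977) and 4.72 more IGHV7 (adjusted p = 0.00977), on 44 to 224 LG clonotypes with IgM per mouse. With clonotypes of 2 or more counts, 0 families passed as higher in the LG (2 at an unadjusted p under 0.05, exact sign-flip test). There IGHV4 was at 0.346 (adjusted p = 0.0952), IGHV7 at 0.572 (adjusted p = 0.281), IGHV10 at 1.04 (adjusted p = 0.113) and IGHV11 at 0.0937 percentage points (adjusted p = 0.150).

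No IGHJ gene passed, and values were more scattered in the LG. IGHJ1 made up 16.7% ± 3.35 of LG and 15.2% ± 0.394 of spleen clonotypes, IGHJ2 33.6% ± 3.23 and 34.4% ± 1.02, IGHJ3 25.4% ± 3.12 and 23.8% ± 0.445, and IGHJ4 24.3% ± 4.43 and 26.6% ± 1.41. The 4 adjusted p-values ran from 0.301 to 0.537 (exact sign-flip test). IGHJ2 passed as lower with clonotypes of 2 or more counts (-3.42, adjusted p = 0.0469) and of 5 or more (-2.98, adjusted p = 0.0234).

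Differences within a mouse, mostly LG minus spleen, were then compared between the groups by an exact permutation test with adjustment over 100 tests, of which 20 passed. In PBS-T mice the filter took 39.8% of the LG counts of mouse 5 and 66.6% of the spleen counts of mouse 6. The mean IgA share of LG counts was 96.7% in NOD-FMT, 75.2% ± 29.0 in PBS-T and 95.6% ± 3.93 in NC mice. In the spleen it was 10.95%, 9.51% ± 5.73 and 17.7% ± 4.67. NOD-FMT means thus lay apart from PBS-T mainly in the LG, and from NC mainly in the spleen. The mean gap between LG and spleen in IgA share was widest in NOD-FMT mice, at 85.8 percentage points ± 3.16. It was 65.7 ± 25.7 in PBS-T mice (adjusted p = 0.0208) and 77.9 ± 8.28 in NC mice (adjusted p = 0.0450). PBS-T LG ranged from 13.9 to 97.1% IgA. Those of mice 4, 6 and 7 lay inside the NOD-FMT range of 94.6 to 98.7%, and the others below it. The permutation test does not separate this unequal spread from a shift of the mean. Without PBS-T mouse 9, whose LG had the lowest IgA share, the difference from PBS-T mice was 13.1 points instead of 20.1 (adjusted p = 0.0343). Without NC mouse 2 that from NC mice was 4.46 instead of 7.87 (adjusted p = 0.161), and this call was lost when any of 10 of the 15 mice was left out. The HCDR3 charge difference of 0.326 ± 0.125 stood against 0.0105 ± 0.0709 in PBS-T (adjusted p = 0.00217) and 0.106 ± 0.0452 in NC mice (adjusted p = 0.0208). The latter call was lost without NC mouse 1 (adjusted p = 0.0588) or 4 (adjusted p = 0.0687). LG IgA exceeded spleen IgA in unmutated share by 43.0 percentage points ± 13.0 in NOD-FMT and 16.1 ± 20.9 in PBS-T mice (adjusted p = 0.0208), with every count weighted alike. The comparison was not run with each unique sequence counted once, where the NOD-FMT excess was 6.35. Against NC mice, at 29.9 ± 13.0, this difference did not pass (adjusted p = 0.252). For mutations per IgA count neither comparison passed (adjusted p = 0.284 against PBS-T and 0.252 against NC mice).

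Gene families differed too. The gap for IGHV3 was -0.590 percentage points ± 0.973 in NOD-FMT mice. It was 1.70 ± 1.64 in PBS-T and 1.90 ± 1.53 in NC mice, each with an adjusted p of 0.0208 (exact permutation test). Both calls held as each mouse was left out. The gap for IGHV9 was -1.94 percentage points ± 0.888 in NOD-FMT mice, -0.0700 ± 0.999 in PBS-T (adjusted p = 0.0123) and -0.361 ± 0.781 in NC mice (adjusted p = 0.0355). Against NC mice the call was lost without any of 7 of 15 mice, with a difference of -1.27 without NC mouse 2 (adjusted p = 0.0999). That for IGHV10 was 1.72 ± 1.64 in NOD-FMT and -0.352 ± 1.12 in PBS-T mice (adjusted p = 0.0374), a call that was lost without any of 11 of 19 mice, PBS-T mouse 6 among them (difference between groups 2.03, adjusted p = 0.0563). In NC mice it was -0.139 ± 0.617, which did not pass (adjusted p = 0.120). The excess of own over other spleens did not pass in either comparison. It was 81.2 percentage points ± 5.22 of LG counts in NOD-FMT, 73.7 ± 27.7 in PBS-T (adjusted p = 0.857) and 82.6 ± 4.62 in NC mice (adjusted p = 0.857).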

How the data were processed

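Heavy-chain BCR libraries were made from total RNA with constant-region primers that carry UMIs. The authors merged paired reads with PEAR, quality-filtered them, formed UMI consensus sequences with Clustal Omega without singletons, assigned the isotype against IMGT constant regions and the variable genes with IgBLAST, and deposited productive sequences with raw counts of consensus sequences and the number of IGHV mismatches, neither normalized. The germline reference release is not given in the sources used here. The labels name mm10, so gene positions come from GRCm38 (GENCODE M21) by symbol, for 91 of 93 tested genes.

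Sequences identical in nucleotides in 3 or more of the 24 mice of a tissue were removed. Isotypes and mutations were weighted by counts, and gene usage and HCDR3 by clonotypes. Isotype-specific mutation values needed 100 counts. Libraries were thinned to 53623 counts (10 draws) for numbers of clonotypes. Tests were two-sided exact sign-flip permutation tests over mice, with Benjamini-Hochberg adjustment within each family of measures, and edgeR 4.0.16 quasi-likelihood tests of IGHV genes (filterByExpr, minimum count 10, library totals, mouse block, adjustment over all tested genes). The SE of a gene's log2 ratio was its absolute value divided by the square root of edgeR's F statistic. Software was Python 3.11.15, SciPy 1.17.1, pandas 2.3.3 and R 4.3.3, with DESeq2 1.42.0 as an alternative.

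LG and spleen were paired because the labels give both the same replicate number. For 10 of 10 LG, the spleen of that number held a larger share of LG counts than any other spleen. Standardized deviations of the 2 libraries correlated by -0.291 to 0.405 across mice. The 48 LG and spleen libraries have separate files, and nothing in the labels says that libraries of a group were prepared together. Precision is set by depth: 3 counts, the limit that a count of 0 allows, were 0.00113 to 0.00559% of a LG library. The named genes are up to 10 of the largest rises and falls each past the threshold (9 and 10) and the IGHV6, IGHV11 and IGHV12 genes, with IGHV1-74, IGHV1-77, IGHV5-4 and IGHV9-3 added after their values were seen, and the named clonotypes the 10 in both tissues of most mice and the largest of each LG. The members, lists and tests were chosen with earlier results of these data known. Alternatives were other contamination filters, minimum counts of 2 and 5, other weights, scalings and clonotype definitions, IgA or IgM alone, thinning, no block, merged or other LG libraries alone, and each mouse left out. Leaving out each mouse from the group comparison and identical sequences without the filter were added after the data were seen.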

Additional observations from a re-analysis of the deposited data

Results flagged for a closer look

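In 17 of 95 sets of 10 values, 1 mouse stood apart from the others by Dixon's criterion, where chance gives about 1 in 20. In the LG these were the shares of IgM in mouse 9 (3.53%), IgG1 in mouse 3 (0.369%), IgG3 in mouse 4 (0.197%) and IgE in mouse 2 (0.00265%). Among gene shares of LG clonotypes they were IGHV2 in mouse 10 (9.98%), IGHV11 in mouse 6 (0.958%), IGHV12 in mouse 3 (0.395%) and IGHJ4 in mouse 3 (33.9%). The LG of mouse 6 had 1.67 mutations per count and 1.70 per IgA count. In the spleen, mouse 2 was low for IGHV13 (0.145%) and HCDR3 length (11.03 amino acids), mouse 4 low for IGHV14 (4.05%), and mouse 8 high for unmutated IgA (51.0%) and the largest clonotype (8.84%). The LG of mouse 4 had the highest mean share of counts on other spleens (17.3%), and that of mouse 7 the highest share identical in nucleotides (0.834%). The largest LG clonotype of mouse 4, with 22.4% of its LG counts, was in 5 NOD-FMT spleens, its own included.

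Within-mouse differences, LG minus spleen unless stated, differed between NOD-FMT and another group in 20 of 100 tests. Against PBS-T mice, the difference in NOD-FMT mice was larger by 20.1 percentage points for IgA, 2.07 for IGHV10, 4.72 for IGHJ3 and 26.9 for unmutated IgA, and by 0.316 for HCDR3 charge. It was more negative for IgG1 (-1.79, or -0.692 without PBS-T mouse 3, adjusted p = 0.0712), IgG2b (-5.49, or -3.04 without PBS-T mouse 2, adjusted p = 0.0729), IgG3 (-1.64), IGHV3 (-2.29), IGHV9 (-1.87) and HCDR3 tyrosine (-0.890). Against NC mice, it was larger by 7.87 points for IgA, 1.92 for IGHV7 and 23.1 for unmutated counts of all isotypes, by 0.220 for HCDR3 charge and by 11.2 points for the IgA share of shared clonotypes. It was more negative for IgG2b (-3.59), IGHV3 (-2.49), IGHV9 (-1.58) and, within the LG, the mutations of shared against LG-only clonotypes (-0.931). As each of the 19 or 15 mice of a comparison was left out in turn, 11 of the 20 calls passed in every case. Against PBS-T mice the exceptions were IGHV10 (lost without any of 11 mice), IgG2b (8) and IgG1 (7). Against NC mice they were IGHV7 (11), unmutated counts of all isotypes (10), IgA (10), IGHV9 (7), IgG2b (6) and HCDR3 charge (2). Without PBS-T mouse 9 the difference in IgA was 13.1 points, and without NC mouse 2 it was 4.46.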

How the results depend on the processing

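Without the pairing of LG and spleen by mouse (no block), 19 IGHV genes were higher in the LG instead of 9, and 22 instead of 19 lower; the block changed no other call. Over all isotypes, the lower number of mutations ranged from -0.621 to -0.402 and the higher unmutated share from 6.999 to 10.5 percentage points as each mouse was left out, and the calls were lost without any of 8 mice. The unmutated share also lost its call without a contamination filter (7.92), with sequences in 2 or more mice removed (7.47) and with those in 3 or more mice over both tissues removed (7.12), the last of which also ended the call on mutations (-0.458). Counting unique sequences once reversed both, to 0.613 and -41.1, and made IgM mutations pass as higher in the LG by 0.670. Counting each clonotype once per isotype reversed IgG1 (0.391), IgG2b (3.95) and IgG2c (1.27). In the 6 merged LG libraries alone the differences were -0.204 (all mutations), 3.92 (unmutated share), -1.73 (IgA mutations), -1.20 (IgG mutations) and 0.265 (HCDR3 charge), none past the threshold, with 0 families higher and 0 lower. With 6 mice the smallest p of the exact sign-flip test is 0.03125 before adjustment, so most of these calls could hardly pass whatever the data. By edgeR 12 genes were lower in these 6 and 8 in the other 4 LG. Weighting by counts gave 0 genes higher (edgeR, and 0 at an unadjusted p under 0.05) and 44 lower, 1 family higher and 2 lower, with a median log2 ratio of -2.45. The sign turned there for IGHV1-75 (-0.23) and IGHV14-3 (-0.37), both above that median, for IGHV11-2 (-3.73) and IGHV4-1 (-2.88), and for the IGHV4 family (-0.977). Within IgA 3 genes were higher, 6 lower and 1 family higher, with IGHV14-3 at -0.40; within IgM 10 genes were higher and 10 lower, and 5 families higher and 2 lower, HCDR3 length differed by -0.402, and IGHV1-75 (-0.70), IGHV10-3 (-0.69), IGHV9-1 (0.15) and the IGHV9 family (1.38) reversed. With a minimum of 2 counts, 0 families were higher and 2 lower, IGHJ2 was lower (-3.42), HCDR3 longer (0.552) and the shared against LG-only difference in mutations -0.0790; with 5, 0 families were higher and 11 genes lower, IGHJ2 was lower (-2.98), HCDR3 longer (0.493), IGHV7-3 was at -0.0188, and shared clonotypes had 0.196 more mutations and an HCDR3 length difference of -0.311. Without a filter on low counts 35 genes were higher. Families higher in the LG numbered 2 to 3 as each mouse was left out. With minimum counts of 2 and 5 and in the merged libraries, 2 families were higher at an unadjusted p under 0.05 (exact sign-flip test), and 1 was lower in the merged libraries. Of the differences between groups, 8 to 11 passed against PBS-T mice (11 with all mice) and 3 to 9 against NC mice (9 with all), lowest without NC mouse 4, as each mouse was left out. The causes were not tested. Isotypes IgA, IgM and IgD, evenness, numbers of clonotypes and the overlap with the own spleen kept direction in all alternatives run, and side of the threshold in all but the other 4 LG, where 4 mice cannot reach it. Depth limits the rare isotypes of the LG, IgM among them with 245 counts in the lowest library.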

Other observations

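Within each NOD-FMT mouse, the size of a shared clonotype in the LG and in the spleen was weakly ordered in the same way. Spearman's correlation over the shared clonotypes of a mouse ran from 0.104 to 0.505, with a median of 0.314 over 10 mice. The clonotypes of a mouse share 2 libraries and are not independent, so no p is given.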
